A study of Mus musculus with 10 samples.

Results

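Distal Pax5R31Q/--only peaks are the regions where Pax5 binding was called in pro-B cells with the mutant Pax5R31Q protein, where no peak was called in Pax5+/+ pro-B cells, and which lie away from promoters. They were chosen by position alone, as Pax5R31Q/- peaks that shared no base with a Pax5+/+ peak and had no base within 1 kb of a RefSeq transcription start site (TSS) on GRCm38. The starts of tRNA genes were not counted as TSSs. Of the 18821 Pax5R31Q/- peaks, 2005 (10.7%) met both conditions, out of 60804 peaks in the 2 lists. The other list held 41983 Pax5+/+ peaks.

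The peak lists came from ChIP-seq with an antibody against the Pax5 paired domain, 1 library per genotype, on bone marrow pro-B cells cultured on OP9 stromal cells with IL-7 for 6 days. The mutant cells carried 1 Pax5R31Q allele and 1 null allele. The cells called Pax5+/+ here carried Pax5 unmutated and were Rag2-/-, whereas the mutant cells were not given as Rag2-/-, so Pax5 and Rag2 genotype cannot be told apart in the comparison of the peaks. The description of the mutant library names Rag2 where its genotype label names Pax5, and the genotype label was followed. RNA-seq was done in 2 libraries each of Pax5+/+, Pax5+/- and Pax5R31Q/- pro-B cells, which were sorted directly from bone marrow and not cultured, and in 2 libraries of Pax5fl/fl Vav-Cre progenitors, called Pax5-/- here, in which Cre under Vav control deletes Pax5 in the hematopoietic system. The strain was C57BL/6 throughout, the R31Q allele having been made in C57BL/6 × CBA zygotes and then crossed to C57BL/6. The age of the animals is not given in the labels, nor whether the 2 RNA libraries of a genotype came from separate animals, so p-values measure the spread between these libraries, which may be technical.

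Pax5 is the transcription factor that commits progenitors to the B cell lineage and maintains B cell identity, activating B cell genes and repressing genes of other lineages. Its paired domain contacts DNA with an N-terminal and a C-terminal subdomain, each on its own part of the recognition sequence, and R31 is in the N-terminal subdomain. In pro-B cells, Pax5 shares many regulatory elements with Ebf1, E2A, Ets proteins and Runx1, which recognize short sequences of their own. A peak records that DNA was enriched with the antibody, and not by itself that Pax5 touched that DNA.

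The match to the recognition sequence can be seen in the members that resembled it most. The search pattern was GCANCCANGCGTGAC, in which GCGTGAC is the part read by the N-terminal subdomain and GCANCCA the part read by the C-terminal subdomain, with 13 set bases. The 5 distal Pax5R31Q/--only peaks shown have the fewest mismatches, 2 each, with ties broken by width. Capitals mark the 15 bases of the match and 20 bases are given on each side.
Zfp469 intron, chr8:122145126-122145180, minus strand: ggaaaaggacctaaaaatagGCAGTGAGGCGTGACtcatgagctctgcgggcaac
intergenic, nearest TSS Chsy1, chr7:66180644-66180698, plus strand: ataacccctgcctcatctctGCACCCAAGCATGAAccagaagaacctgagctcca
Rph3a intron, chr5:120945924-120945978, minus strand: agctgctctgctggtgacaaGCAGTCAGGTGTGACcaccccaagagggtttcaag
Adap1 intron, chr5:139323990-139324044, minus strand: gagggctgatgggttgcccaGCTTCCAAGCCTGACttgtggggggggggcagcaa
Wdfy4 intron, chr14:33162005-33162059, plus strand: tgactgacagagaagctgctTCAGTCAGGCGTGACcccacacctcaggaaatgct
Counted from 1 at the first base of the pattern, the departures were C5T and C6G at Zfp469, G11A and C15A near Chsy1, C5T and C10T at Rph3a, A3T and G11C at Adap1, and G1T and C5T at Wdfy4. The GCGTGAC part was complete at Zfp469 and Wdfy4 and interrupted at the other three. C5T recurred in 3 of the 5, and its effect on the counts is given with the motif shares below.

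The sequences of other members, shown next, were picked because they hold motifs of the factors that share elements with Pax5. Each window covers 200 bp around the midpoint of a member whose nearest TSS or surrounding gene changed expression in Pax5R31Q/- cells, with 1 member at Pax5 itself shown last, and is given on the plus strand. Capitals mark matches on either strand to CCCNNGGGA (Ebf1), TGTGGTT (Runx), CAGGAAGT (Ets) or CAGCTG (E-box, bound by E2A).
Alpl intron, chr4:137748854-137749053: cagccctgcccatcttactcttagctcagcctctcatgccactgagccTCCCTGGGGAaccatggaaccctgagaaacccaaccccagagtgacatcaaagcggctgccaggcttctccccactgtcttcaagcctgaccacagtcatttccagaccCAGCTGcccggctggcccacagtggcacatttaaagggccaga
Plxdc1 intron, chr11:97953614-97953813: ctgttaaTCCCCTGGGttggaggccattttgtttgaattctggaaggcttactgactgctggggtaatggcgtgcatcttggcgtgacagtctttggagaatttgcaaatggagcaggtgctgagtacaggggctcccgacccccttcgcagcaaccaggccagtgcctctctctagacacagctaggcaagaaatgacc
Pik3ap1 intron, chr19:41328891-41329090: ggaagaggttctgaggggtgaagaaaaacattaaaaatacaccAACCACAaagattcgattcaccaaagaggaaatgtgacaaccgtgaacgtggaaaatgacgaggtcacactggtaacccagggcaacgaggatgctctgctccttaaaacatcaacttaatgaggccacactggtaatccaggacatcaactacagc
upstream of Clec2m, chr6:129333834-129334033: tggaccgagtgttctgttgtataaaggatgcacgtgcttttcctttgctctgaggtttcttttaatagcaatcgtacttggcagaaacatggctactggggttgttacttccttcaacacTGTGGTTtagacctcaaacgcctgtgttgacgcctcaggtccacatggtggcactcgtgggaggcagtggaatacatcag
Auts2 intron, chr5:131829254-131829453: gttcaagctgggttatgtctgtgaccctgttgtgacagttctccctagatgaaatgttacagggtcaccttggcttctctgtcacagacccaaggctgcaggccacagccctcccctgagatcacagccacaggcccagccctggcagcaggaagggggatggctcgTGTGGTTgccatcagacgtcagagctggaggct
Sh3bp5 intron, chr14:31410431-31410630: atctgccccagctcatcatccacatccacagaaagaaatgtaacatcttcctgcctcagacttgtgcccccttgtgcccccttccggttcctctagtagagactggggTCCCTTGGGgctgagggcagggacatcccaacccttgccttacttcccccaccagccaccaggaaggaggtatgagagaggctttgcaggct
downstream of Htra3, chr5:35646099-35646298: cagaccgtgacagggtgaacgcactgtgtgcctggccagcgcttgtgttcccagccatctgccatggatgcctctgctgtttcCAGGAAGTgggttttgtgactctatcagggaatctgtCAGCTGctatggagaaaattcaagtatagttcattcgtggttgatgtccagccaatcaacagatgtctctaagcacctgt
Pgf intron, chr12:85169564-85169763: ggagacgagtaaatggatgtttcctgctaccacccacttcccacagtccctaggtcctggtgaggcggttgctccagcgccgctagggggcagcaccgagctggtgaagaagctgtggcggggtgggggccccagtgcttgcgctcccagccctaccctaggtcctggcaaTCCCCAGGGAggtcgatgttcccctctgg
Myl10 intron, chr5:136696409-136696608: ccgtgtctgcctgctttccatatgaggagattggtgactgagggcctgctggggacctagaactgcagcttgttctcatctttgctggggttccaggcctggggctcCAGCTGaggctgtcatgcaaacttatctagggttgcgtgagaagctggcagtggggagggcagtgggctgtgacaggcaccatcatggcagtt
upstream of Tmem200b, chr4:131910488-131910687: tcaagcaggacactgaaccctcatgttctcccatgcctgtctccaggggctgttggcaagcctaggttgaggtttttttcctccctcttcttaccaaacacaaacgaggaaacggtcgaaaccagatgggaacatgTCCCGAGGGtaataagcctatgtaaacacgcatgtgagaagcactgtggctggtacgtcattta
Pax5 intron, chr4:44705294-44705493: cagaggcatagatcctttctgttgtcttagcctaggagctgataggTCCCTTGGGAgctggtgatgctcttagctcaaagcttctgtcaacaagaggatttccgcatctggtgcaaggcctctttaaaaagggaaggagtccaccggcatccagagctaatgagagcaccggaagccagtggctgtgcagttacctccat
Of the 23 members at genes called in Pax5R31Q/- cells, 16 held 1 or more of these motifs in such a window and 7 held none, as did 2 of the 5 members at Pax5. The share over all members was computed only for windows of 300 bp, where it was 59.3%. The count is therefore no result about members at called genes. No more than 1 window is shown per gene, and windows with a motif at Asb2, Sema3g, Rapgef3 and Dlg2 were also left out, by no rule fixed beforehand. An Ebf1 match stands in the Alpl, Plxdc1, Sh3bp5, Pgf, Tmem200b and Pax5 windows, a Runx match in the Pik3ap1, Clec2m and Auts2 windows, an Ets match at Htra3 and an E-box at Alpl, Htra3 and Myl10. The Plxdc1 window also holds an uncapitalized match to the Pax5 pattern with 2 mismatches, C6T and A7T, whose GCGTGAC part is complete.

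The members were narrower than the distal peaks that overlapped a Pax5+/+ peak, and their distance to genes was close to that of those peaks. Their widths ran from 228 to 3266 bp, with quartiles at 324 and 473 bp and a median of 379 bp. Distal common peaks, the 6447 distal Pax5R31Q/- peaks that shared bases with a Pax5+/+ peak, were wider, with a median of 440 bp and quartiles at 362 and 578 bp. There were 281 members under 300 bp and 34 of 1 kb or more, 11 of the latter on X or Y. The median distance from a member to the nearest TSS was 11124 bp, against 11638 bp for distal common peaks. Distal Pax5+/+-only peaks, which overlapped no Pax5R31Q/- peak, were narrower (median 316 bp) and farther from a TSS (median 38208 bp). Members at 1 to 5 kb from a TSS made up 27.4%, those at 5 to 50 kb 61.6% and those over 50 kb 10.9%, against 25.3%, 63.2% and 11.5% of distal common peaks. The member nearest to the TSS limit was 1005 bp away, and the Pax5R31Q/--only peak just inside the limit, which was not a member, was 988 bp away. With 1 library per genotype, these differences have no replicate check, and the lists carry positions only, with no height, enrichment or p-value for a peak.

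**Figure D1:**
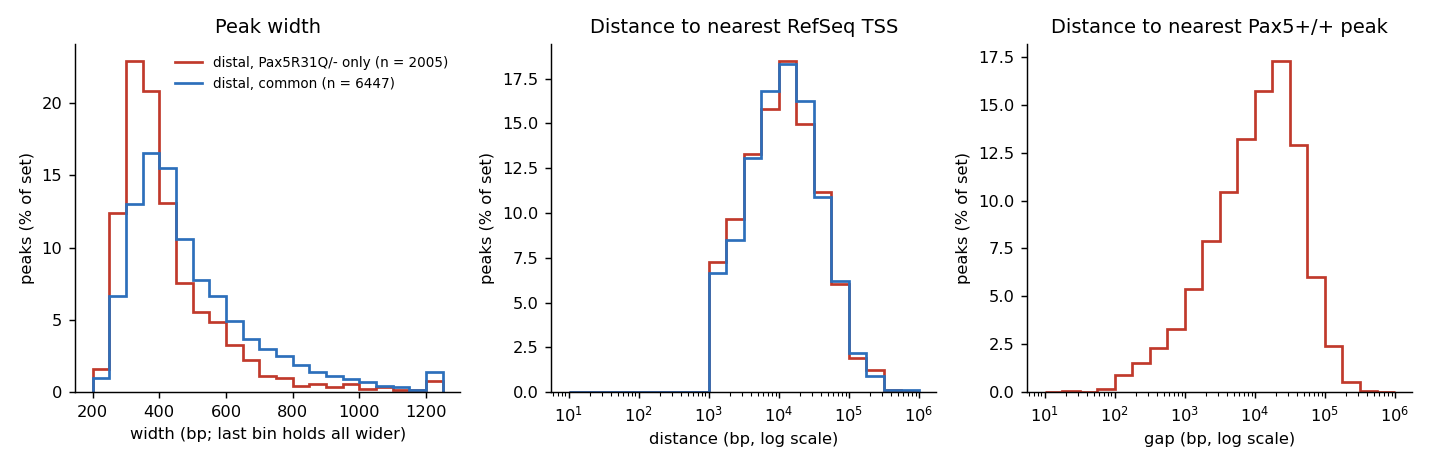
Width (bp), distance to the nearest RefSeq TSS (bp, log scale) and distance to the nearest Pax5+/+ peak (bp, log scale), each as the percentage of peaks in a bin. The distal Pax5R31Q/--only peaks (red, n = 2005) were narrower than the distal common peaks (blue, n = 6447), with medians of 379 and 440 bp, while the curves of TSS distance lie over each other.

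Most members lay far from any Pax5+/+ peak, although few were isolated on the scale of a locus. The median gap to the nearest Pax5+/+ peak was 11908 bp, with quartiles at 3942 and 28295 bp and a range of 29 to 550139 bp. A Pax5+/+ peak stood within 200 bp of 1.45% of members (95% exact binomial interval 0.971 to 2.07%), within 1 kb of 8.18%, within 10 kb of 45.1% and within 50 kb of 89.0%. At the other side of the rule, the smallest overlap by which a Pax5R31Q/- peak counted as common was 169 bp. No common peak was thus near the limit of a single shared base, while the closest member was 29 bp from a Pax5+/+ peak. The members were 57.8% of all 3470 Pax5R31Q/--only peaks, whereas distal peaks were 42.0% of the 15351 common peaks. Read the other way, 23.7% of distal Pax5R31Q/- peaks had no Pax5+/+ peak, against 14.1% of those within 1 kb of a TSS. Intervals given here and below cover counting error only.

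By the position of the midpoint in RefSeq, 990 members (49.4%, 47.2 to 51.6%) were in introns and 787 (39.3%, 37.1 to 41.4%) between genes. A further 96 (4.79%) were in coding exons, 68 (3.39%) in UTR exons and 64 (3.19%) in exons of noncoding transcripts. Distal common peaks had close values, with 49.7% in introns and 41.4% between genes. Single members were the rule, as 1647 had no other member within 20 kb and 358 stood in groups of 2 or more.

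The members were GC-rich and poor in repeats compared with the genome at large. In 300 bp around the midpoint, the median GC content was 52.7%, against 51.3% for distal common peaks and 41.3% in 264759 windows of the same length taken every 10 kb along the genome. Repeat-masked bases filled 50% or more of the window in 94 members (4.69%), compared with 361 of the 6447 distal common peaks and 29.5% of genome windows. Distal Pax5+/+-only peaks were unlike both, since 74.5% of the 25247 were 50% or more masked. For motifs, only the 6447 Pax5+/+-only peaks under 50% masked were therefore set beside the members; their median width was 308 bp and their median GC content 46.0%.

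The Pax5 recognition sequence was less frequent in the members than in the distal common peaks, while motifs of Ebf1 and Runx1 were at least as frequent. The pattern was taken as the consensus of the study, which searched for motifs in common and in Pax5+/+-only peaks of these same data. Neither of those sets is independent of the pattern, and the part of this in the difference was not tested. A match to the whole pattern with at most 2 mismatches was found in 18 of 2005 members, or 0.898% (0.533 to 1.42%). It was found in 5.40% of distal common peaks (4.86 to 5.98%), 8.08% of distal Pax5+/+-only peaks under 50% masked, 0.341% of Pax5R31Q/--only promoter peaks and 0.286% of genome windows. No member matched with 1 mismatch or fewer, which allows a share of up to 0.184%, whereas 0.946% of distal common peaks did. The interval of the members lay below that of the distal common peaks and above the share of genome windows.

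One base of the pattern moved this comparison, and a second pattern was tried after the values had been seen. With T in place of C at base 5 (GCANTCANGCGTGAC), 36 members (1.80%, 1.26 to 2.48%) matched with at most 2 mismatches, against 3.54% of distal common peaks (3.10 to 4.02%) and 0.210% of genome windows. With at most 1 mismatch, the counts were 7 members (0.349%, 0.141 to 0.718%) and 28 distal common peaks (0.434%, 0.289 to 0.627%), and these intervals overlapped. The genome windows stood at 0.00642% for that match. Most members matched neither form at 2 mismatches.

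The parts of the pattern behaved differently from each other. The N-terminal part, GCGTGAC, occurred in 3.54% of members (2.78 to 4.45%), less than in distal common peaks (7.99%, 7.34 to 8.68%) and distal Pax5+/+-only peaks under 50% masked (5.30%), and more than in genome windows (0.513%). The C-terminal part, GCANCCA, occurred in 521 of 2005 members (24.1 to 28.0%), and its share in distal common peaks was 26.2% (25.2 to 27.3%) and in genome windows 15.4%. Intervals of members and distal common peaks were apart for the N-terminal part and overlapped for the C-terminal part. The latter is a short sequence with an open base, and a match to it is a description of the letters and not a bound site.

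Motifs of other B-lineage factors were frequent. The Ebf1 motif CCCNNGGGA, recognized by the factor that acts with Pax5 at the pro-B cell stage, was present in 15.3% of members (13.8 to 17.0%), against 12.5% of distal common peaks (11.7 to 13.4%) and 6.47% of distal Pax5+/+-only peaks under 50% masked. The Runx motif TGTGGTT followed the same order, with 20.2% of members (18.5 to 22.1%), 16.8% of distal common peaks (15.9 to 17.7%) and 11.4% of the Pax5+/+-only peaks. For the Ets motif CAGGAAGT the shares were 10.3% (8.98 to 11.7%), 8.58% (7.91 to 9.29%) and 5.66%. Intervals of the members and the distal common peaks did not overlap for Ebf1 and Runx and overlapped for Ets.

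The E-box CAGCTG was the most frequent of the 23 short motifs searched, with 33.2% of members (31.1 to 35.3%) and 31.4% of distal common peaks (30.3 to 32.5%), and it lay in 10.6% of genome windows. The E-box CAGGTG was in 29.8% and 30.6%, and the PU.1 motif GAGGAAGT in 8.18% and 7.04%. Motifs of widely expressed factors were also well above the genome windows, as the CTCF core AGNNGGCGC was in 5.14% of members, 4.81% of distal common peaks and 0.710% of windows, and the GC box GGGCGGG of Sp and Klf factors in 8.68%, 8.31% and 1.46%. Ebf1 and Runx stood at 2.75% and 6.87% of windows. Some motifs were near the level of genome windows, among them the Ikaros core TGGGAA (26.4% of members, 23.9% of windows), the STAT motif TTCNNNGAA (10.4% and 11.3%) and the Fox motif TGTTTAC (3.74% and 4.46%). Others were below that level, with the Tcf/Lef motif CTTTGAT in 3.64% of members (2.86 to 4.56%) and 6.13% of windows, the GATA motif AGATAAG in 2.49% (1.86 to 3.27%) and 4.43%, and the IRF motif GAAANNGAA in 8.43% (7.25 to 9.73%) and 11.8%. One or more of the Ebf1, Runx, Ets and CAGCTG motifs stood in 59.3% of members (57.1 to 61.4%), 53.1% of distal common peaks, 38.7% of Pax5+/+-only peaks under 50% masked and 20.5% of genome windows. GC content, which was also higher in peaks than in genome windows, moves with these shares, and its part in them was not tested.

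**Figure D2:**
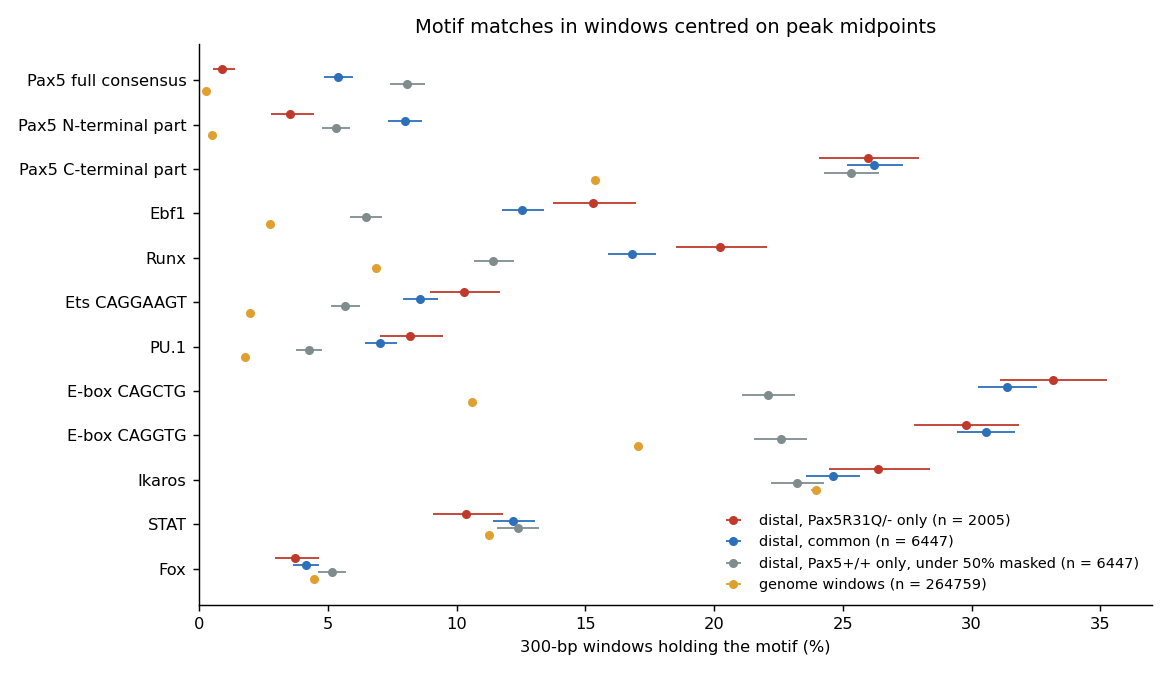
Share of 300-bp windows (%) that hold each motif in distal Pax5R31Q/--only peaks (red), distal common peaks (blue), distal Pax5+/+-only peaks under 50% masked (grey) and genome windows (orange), with 95% exact binomial intervals. The red points lie left of the blue ones for the whole Pax5 pattern (0.898% and 5.40%) and right of them for Ebf1 and Runx.

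The B-lineage motifs were concentrated at the midpoints of the members. Within 100 bp of the midpoint there were 94.3 Ebf1 sites per 1000 members in 100 bp of sequence, against 23.1 at 300 to 500 bp from it, a ratio of 4.09. The ratio was 3.22 for Runx, 4.85 for Ets and 2.46 for the E-box CAGCTG. Distal common peaks had ratios of 3.55, 2.91, 3.72 and 2.65 in the same order. The whole Pax5 pattern at 2 mismatches had 14 sites within 100 bp of the midpoints of members and 13 at 300 to 500 bp, or 3.49 and 1.62 sites per 1000 members, whereas in distal common peaks the values were 25.6 and 1.59. With T at base 5 the members had 34 central sites (8.48 per 1000) and 10 outer ones (1.25 per 1000), compared with 17.5 and 0.969 per 1000 in distal common peaks.

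**Figure D3:**
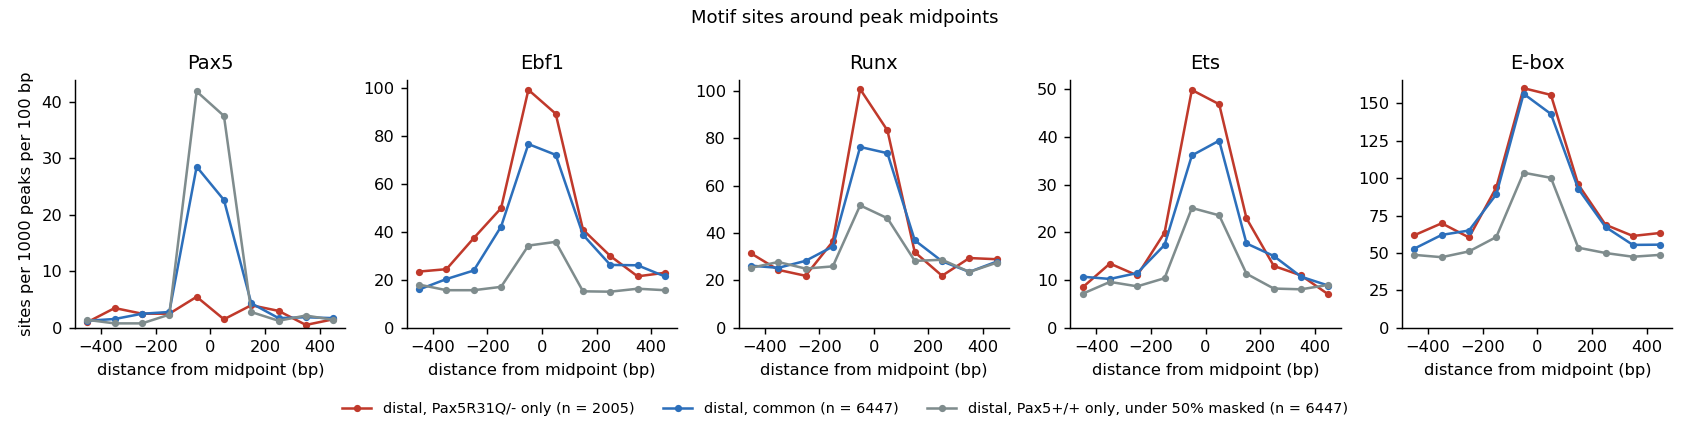
Motif sites per 1000 peaks in bins of 100 bp, by distance from the peak midpoint (bp), for the Pax5 pattern with at most 2 mismatches and for the Ebf1, Runx, Ets and CAGCTG motifs. The members (red) have central maxima for Ebf1, Runx, Ets and the E-box, and stay under 6 sites per 1000 for Pax5, where distal common peaks (blue) and distal Pax5+/+-only peaks under 50% masked (grey) rise at the centre.

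Among themselves, the members differed little in motif content with width. They were ranked by width into 3 classes of 668, 668 and 669 peaks, up to 342 bp, up to 430 bp and wider. The share with an Ebf1 motif was 14.2%, 15.6% and 16.1% from the narrow to the wide class, with overlapping intervals. The share with a Runx motif was 21.9%, 22.0% and 16.9% (14.1 to 19.9%), and intervals overlapped here as well. A Pax5 match at 2 mismatches was in 6, 3 and 9 peaks. Wide members were more often close to a Pax5+/+ peak, with 32.6% (29.0 to 36.3%) within 5 kb, against 167 of 668 (21.8 to 28.5%) of narrow ones.

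The members were spread over all chromosomes, with 1 exception. On the autosomes and X they made up between 8.40% (chromosome 7) and 13.4% (X) of the Pax5R31Q/- peaks. On Y they were 14 of 31 peaks, or 45.2% (27.3 to 64.0%). Of those 14, 11 stood in 1 group at chrY:90743803-90840233, and 8 members stood in a group at chrX:169985965-170021018, next to Erdr1 and Mid1. This is the end of the sex chromosomes that X and Y share, and the central 50 bases of 6 of the 8 X members also lay on Y. The widest members of all were 2 copies of the same region, of 3266 bp at chrY:90769669-90772934 and 3260 bp at chrX:169995336-169998595, which shared 99.7% of their runs of 11 bases. Pax5+/+ peaks were also called in both groups, 11 in the Y group and 2 in the X group. Reads from such copies cannot be placed with certainty.

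**Figure D4:**
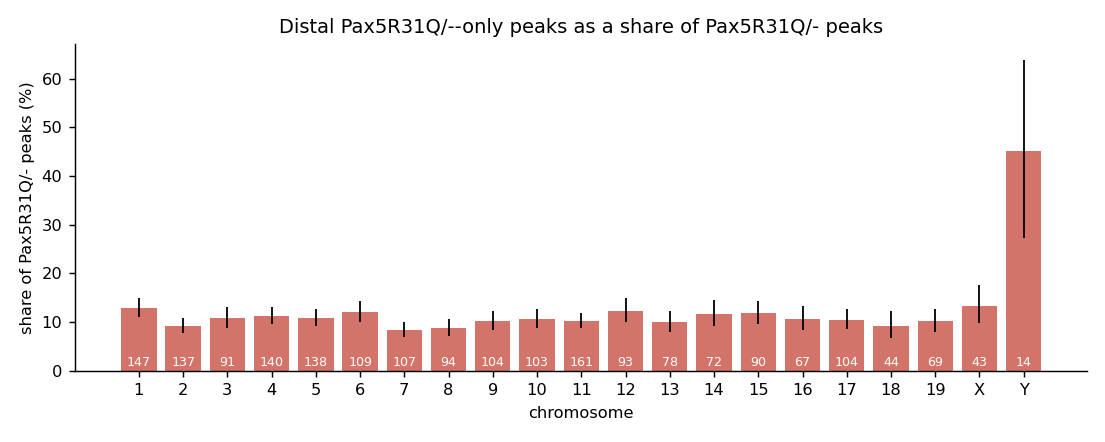
Distal Pax5R31Q/--only peaks as a share of Pax5R31Q/- peaks (%) on each chromosome, with the number of members in white and 95% exact binomial intervals. Y stands at 45.2% from 14 of 31 peaks, and the other chromosomes lie between 8.40% and 13.4%.

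Over all members, the central 50 bases occurred more than once on the assembled chromosomes in 104 (5.19%, 4.26 to 6.25%), against 3.33% of distal common peaks (2.91 to 3.80%). Among them were 3 of the 4 members in 4933407K13Rik, a noncoding gene on X, at chrX:75729797-75754487. No Pax5+/+ peak was called in that span. The gene itself was expressed at 5.15 and 7.28 TPM (transcript abundance normalized for length and depth) in Pax5+/+ and at 7.08 and 6.27 TPM in Pax5R31Q/- libraries, which overlap.

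Transfer RNA genes, which are transcribed by RNA polymerase III and have no RefSeq messenger transcript, account for another few members. Of the 403 annotated tRNA genes, 112 lay in a Pax5R31Q/- peak and 91 in a Pax5+/+ peak, and 36 lay in the former only. A tRNA gene was overlapped by 13 members (0.648%, 0.346 to 1.11%), against 0.527% of distal common peaks (0.366 to 0.736%), and these intervals overlapped. Of distal Pax5+/+-only peaks, 0.0356% did. Annotated pseudogenes, which resemble the genes they derive from, were overlapped by 48 members (2.39%, 1.77 to 3.16%), a larger share than that of distal common peaks (1.09%, 0.847 to 1.37%), and these intervals were apart. Of the 4 members whose nearest TSS was that of Fcgr3, a low-affinity IgG receptor of myeloid cells, 3 had a central sequence with 3 copies, and the chr1:171071652-171072796 peak of 1145 bp and the chr1:171073000-171073692 peak of 693 bp each overlapped a tRNA gene. The nearest Pax5+/+ peak was 1190 bp from the first and 294 bp from the second. Fcgr3 stood at 5.74 and 5.54 TPM in Pax5+/+ and at 7.75 and 5.81 TPM in Pax5R31Q/- libraries, a difference that did not pass the test (adjusted p = 0.836, limma).

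Several loci of B-lineage regulators held members beside shared peaks. Pax5 held 3 in its body and 2 upstream of its TSS, the largest number for a gene of the lists considered. These were chr4:44645056-44646251 (1196 bp, midpoint in a coding exon), chr4:44697341-44697974 (634 bp, coding exon), chr4:44705194-44705593 (400 bp, intron), chr4:44712054-44712409 (356 bp) and chr4:44712887-44713471 (585 bp). The gaps to the nearest Pax5+/+ peak were 18692, 6117, 371, 634 and 1467 bp. In all, the body of Pax5 held 11 Pax5R31Q/- and 8 Pax5+/+ peaks.

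Bach2, a repressor of plasma cell differentiation, held 3 members, among 10 peaks of each genotype. They lay at chr4:32303685-32304045 (UTR exon), chr4:32387916-32388235 (intron) and chr4:32579895-32580389 (coding exon), 11895, 26792 and 34637 bp from a Pax5+/+ peak. Foxo1, which is required for Rag gene expression, held 2 intronic members at chr3:52269802-52270371 and chr3:52343611-52343935, where 3 Pax5R31Q/- peaks and 1 Pax5+/+ peak were called. Tcf7, a T-lineage regulator, held 2 neighbouring intronic members, at chr11:52272301-52272644 and chr11:52272901-52273310. Bcl11a held 5 Pax5R31Q/- peaks and 1 Pax5+/+ peak, and its member at chr11:24081759-24082247 was 62506 bp from the nearest Pax5+/+ peak.

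Ebf1 had members at chr11:44613016-44613475, upstream of its TSS, and chr11:44665175-44665485, in an intron. Runx1 had 1 at chr16:92823476-92823875, Ikzf1 1 at chr11:11667328-11667650, and Tcf3, which encodes E2A, 1 in its body and 1 upstream. Cxcr4, the chemokine receptor that retains precursors in bone marrow, was the nearest TSS to 3 members at 22465, 44409 and 83479 bp upstream. Outside the lists, Zap70, a kinase of T cell receptor signaling, was the nearest TSS to 5 members, all downstream of its TSS, 3 of them inside the neighbouring gene Tmem131. Socs1, an inhibitor of cytokine signaling, was nearest to 4. The immunoglobulin heavy-chain region on chromosome 12 (113256204 to 116009954, the span of its annotated segments) held 7 members among 22 Pax5R31Q/- and 75 Pax5+/+ peaks, and the kappa region on chromosome 6 held 2 among 18 and 110.

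Of the gene lists, 8 of 19 B-lineage regulators, 1 of 12 B cell receptor and surface genes, 0 of 5 V(D)J recombination genes, 2 of 11 T, NK and innate genes, 1 of 8 myeloid genes and 2 of 9 progenitor and cytokine genes were nearest to or held a member, where 8.13% of all 13436 genes tested met the same condition. Only 11 of the 12 B cell receptor and 7 of the 11 T, NK and innate genes were tested. Long genes have more room for a member, and gene length was not taken into account. Of the 14 listed genes with a member, 2 had an adjusted p-value under 0.05 in Pax5R31Q/- against Pax5+/+ cells, Pax5 and Bach2, where 4.17% of all genes tested did. Pax5 is the gene altered in the mutant, which has 1 null allele, so its own change is no result about the lists. An unadjusted p-value under 0.05 was found for 5, where 18.8% of all genes tested had one, and 0 were called. The call required an adjusted p-value under 0.05 in limma across all genes tested, a change of over 3-fold on the log2(TPM + 1) scale and a mean over 5 TPM in a genotype. In bulk RNA, fewer cells of a type and less RNA per cell cannot be told apart.

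In the RNA-seq data, the level of the targeted gene was as follows. Pax5 was at 418 and 444 TPM in Pax5+/+, 272 and 287 TPM in Pax5+/-, 306 and 293 TPM in Pax5R31Q/- and 1242 and 1409 TPM in Pax5-/- libraries. The Pax5R31Q/- libraries were below the Pax5+/+ ones and near the Pax5+/- ones, while the Pax5-/- libraries were above all others. A value summed over the gene does not resolve the deleted part and so does not check the Pax5-/- label. Pro-B markers were present in all libraries, with sums of 7759 to 18700 TPM over 11 genes such as Cd79a, Vpreb1 and Rag1. T and NK markers summed to between 10.1 and 19.9 TPM (6 genes), myeloid markers to between 98.1 and 498 TPM (6 genes), erythroid markers to between 4.19 and 27.4 TPM (4 genes, Hbb-bs under 0.1 TPM in every library) and stromal markers to between 2.402 and 15.7 TPM (4 genes); their part in the results was not tested.

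Few genes near the members changed in Pax5R31Q/- cells. The 2005 members had 1760 nearest genes, of which 1161 were in the expression table and 833 were expressed well enough to be tested. Of the 833, 7 (0.840%, 0.339 to 1.72%) were called lower in Pax5R31Q/- than in Pax5+/+ cells, where 0.558% of all 13436 genes tested were. Another 7 (0.840%) were called higher, where 0.275% of all genes were. Both shares rest on 7 genes and have the same interval, which includes the background of the lower calls and lies above that of the higher calls. The lower count rose to 11 without the first Pax5+/+ library, where the share over all genes rose to 0.716%, and the higher count fell to 4 without the first mutant library, where the share over all genes fell to 0.149%. Genes nearest to distal common peaks had 33 lower (1.48%) and 13 higher (0.582%, 0.310 to 0.994%) of 2233 tested. Those nearest to distal Pax5+/+-only peaks under 50% masked had 34 lower (1.61%) and 12 higher (0.567%, 0.294 to 0.989%) of 2115. In both sets the interval of the higher calls also lay above the share over all genes. The median log2 fold change was -0.01 over the genes nearest to members and 0.04 over all genes tested. Of the genes that held a member in their body, 7 were lower and 6 higher of 747 tested.

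When Pax5 was absent, more of the genes near the members were called, in both directions. In Pax5-/- progenitors, 46 of the 833 genes (5.52%, 4.07 to 7.30%) were called lower than in Pax5+/+ pro-B cells, where 3.45% of all genes tested were, and 64 (7.68%, 5.97 to 9.71%) were called higher, where 2.87% of all genes were. Genes nearest to distal common peaks leaned the other way, with 155 lower (6.94%, 5.92 to 8.08%) and 106 higher (4.75%, 3.90 to 5.71%) of 2233. So did those nearest to distal Pax5+/+-only peaks under 50% masked, with 141 lower (6.67%) and 79 higher (3.74%) of 2115. The gene sets share members, and both contrasts share the Pax5+/+ libraries. The median Pax5+/+ level was 28.9 TPM for genes near members and 22.0 TPM for all genes tested. Pax5-/- cells were labelled progenitors, so genotype and cell stage cannot be told apart in these counts.

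Counting nearest TSS and gene body together, 1092 genes were tested and 19 were called in Pax5R31Q/- cells, 10 lower (0.916%) and 9 higher (0.824%), against the 0.558% and 0.275% of all genes given above. The genes were selected by the call between these libraries, so their lack of overlap is no further result. They are given with the TPM of each library. Among the lower genes, Pik3ap1, the adaptor BCAP of B cell receptor signaling, held 2 intronic members. It was at 471 and 497 TPM in Pax5+/+, 392.5 and 324 TPM in Pax5+/-, 143 and 115 TPM in Pax5R31Q/- and 90.5 and 105 TPM in Pax5-/- libraries. Its log2 fold change in Pax5R31Q/- cells was -1.91 (SE 0.15, adjusted p = 0.0011), and the Pax5R31Q/- libraries lay close to the Pax5-/- ones. The members were 30255 and 27376 bp from the nearest Pax5+/+ peak.

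Alpl, the tissue-nonspecific alkaline phosphatase, fell in Pax5R31Q/- cells from 86.7 and 105 TPM to 23.1 and 15.7 TPM (log2 fold change -2.26, SE 0.24, adjusted p = 0.00312). It was at 40.03 and 53.5 TPM in Pax5+/- and 0.889 and 0.473 TPM in Pax5-/- libraries, so the mutant was between wild type and null. Plxdc1, a transmembrane protein with a plexin domain, held 2 members 29989 and 28218 bp from a Pax5+/+ peak and fell from 114 and 152 TPM to 34.6 and 28.6 TPM (-2.03, SE 0.21, adjusted p = 0.00277). Pax5+/- libraries had 86.2 and 75.7 TPM, and Pax5-/- libraries had 4.87 and 7.11 TPM, again lower than the mutant. Asb2, the substrate-binding subunit of a ubiquitin ligase, fell from 38.5 and 52.3 TPM to 10.995 and 6.72 TPM (-2.25, SE 0.25, adjusted p = 0.0037) and was at 27.7 and 30.5 TPM in Pax5+/- and 0.148 and 0.289 TPM in Pax5-/- libraries. Its member was 3489 bp upstream of its TSS.

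Parvb, the actin-binding protein beta-parvin, fell from 59.5 and 77.6 TPM to 12.7 and 11.3 TPM (-2.41, SE 0.18, adjusted p = 0.000916) and was at 40.9 and 31.4 TPM in Pax5+/- and 10.4 and 10.6 TPM in Pax5-/- libraries, so that mutant and null were close. The C-type lectin gene Clec2m fell from 5.51 and 8.23 TPM to 0.046 and 0.047 TPM (-2.89, SE 0.22, adjusted p = 0.000917), and its member was 2126 bp upstream of the TSS. Pax5+/- libraries had 2.68 and 2.03 TPM and Pax5-/- libraries 0.064 and 0.181 TPM of Clec2m. With values this low the pseudocount sets the size of the change, which for Clec2m was -5.55 with a pseudocount of 0.1. Slit1, a secreted guidance protein, fell from 23.98 and 35.4 TPM to 7.87 and 6.44 TPM (-1.89, SE 0.28, adjusted p = 0.0114) and was at 15.4 and 9.66 TPM in Pax5+/- and 0.875 and 0.486 TPM in Pax5-/- libraries. The next gene went the other way in the null. Spns3, of a family of lipid transporters, fell from 70.7 and 90.1 TPM to 24.4 and 21.6 TPM in Pax5R31Q/- libraries (-1.75, SE 0.16, adjusted p = 0.00199) and was at 49.5 and 39.2 TPM in Pax5+/- libraries and at 164 and 170 TPM in Pax5-/- libraries, above wild type. Auts2, a chromatin-associated regulator, was at 4.02 and 6.40 TPM in Pax5+/+, 5.34 and 5.601 TPM in Pax5+/-, 1.15 and 0.746 TPM in Pax5R31Q/- and 2.27 and 2.12 TPM in Pax5-/- libraries (mutant: -1.65, SE 0.23, adjusted p = 0.00849). Some of these calls were lost when 1 library was left out, or without the filter that kept genes of at least 1 TPM in a library. A fit without 1 library leaves 1 in that genotype and takes its spread from the other groups, so its log2 fold change is given. Slit1 was not called without the second Pax5+/+ library (-1.62) or without the first or second mutant library (-2.02 and -1.77), nor was Auts2 (-1.37, -1.80 and -1.50). Without the filter both were lost (limma adjusted p = 0.0946 for Slit1 and 0.0669 for Auts2). Spns3 fell just short of 3-fold without the second Pax5+/+ library (-1.58).

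Sh3bp5, a protein that binds the kinase Btk, completed the lower genes. It was at 127 and 148 TPM in Pax5+/+ and 145 and 135 TPM in Pax5+/- libraries, but 46.4 and 43.5 TPM in Pax5R31Q/- libraries (-1.59, SE 0.12, adjusted p = 0.000917). The Pax5+/- libraries were within the Pax5+/+ range, and the Pax5R31Q/- libraries were below both. Pax5-/- libraries stood between, at 58.0 and 63.9 TPM. The call did not pass the 3-fold limit without the second Pax5+/+ library (-1.48) or without the second mutant library (-1.54).

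Among the higher genes, Htra3, a secreted serine protease, changed most with the pseudocount of 1 used here, although with 0.1 the log2 fold change of Tmem200b was larger (4.37, against 3.72 for Htra3). Htra3 rose from 1.21 and 1.52 TPM to 16.5 and 22.0 TPM in Pax5R31Q/- libraries (log2 fold change 3.09, SE 0.20, adjusted p = 0.000515) and was at 2.48 and 2.03 TPM in Pax5+/- and 38.8 and 32.9 TPM in Pax5-/- libraries. Its 2 members were 9381 and 7770 bp from the nearest Pax5+/+ peak, and no Pax5R31Q/- peak was called in its body. Myl10, a myosin light chain expressed in lymphoid precursors, rose from 40.3 and 30.2 TPM to 217 and 389 TPM (3.02, SE 0.30, adjusted p = 0.00254) and reached 1334 and 1552 TPM in Pax5-/- libraries. The Pax5+/- libraries, at 129 and 190 TPM, were already above wild type (2.14, adjusted p = 0.0904). Sema3g, a secreted semaphorin, rose from 5.89 and 7.08 TPM to 27.9 and 30.4 TPM (2.01, SE 0.16, adjusted p = 0.00117), with 45.2 and 48.9 TPM in Pax5-/- libraries. Its Pax5+/- libraries were at 16.9 and 21.5 TPM, also above wild type (1.43, adjusted p = 0.0627).

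For Htra3, Myl10 and Sema3g, and for Rapgef3, the exchange factor Epac1, the mutant value was between those of wild type and null. Rapgef3 was at 5.21 and 6.58 TPM in Pax5+/+, 6.92 and 5.196 TPM in Pax5+/-, 29.98 and 17.0 TPM in Pax5R31Q/- and 44.0 and 67.3 TPM in Pax5-/- libraries (mutant: 1.78, SE 0.31, adjusted p = 0.021). The call for Rapgef3 was lost when any of the 4 libraries was left out. Its log2 fold change was 1.64 and 1.93 without the first and second Pax5+/+ library and 1.39 and 2.175 without the first and second mutant library. The call was also lost without the filter on low TPM (limma adjusted p = 0.146).

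Other genes were higher in the mutant than in every other genotype, the null included. Pgf, the placental growth factor, was at 1.79 and 2.54 TPM in Pax5+/+, 3.77 and 4.96 TPM in Pax5+/-, 15.5 and 15.3 TPM in Pax5R31Q/- and 1.42 and 1.599 TPM in Pax5-/- libraries (mutant: 2.39, SE 0.19, adjusted p = 0.00117). Its intronic member, at chr12:85169470-85169856, was 8175 bp from the nearest Pax5+/+ peak, and the body of Pgf held 2 Pax5R31Q/- peaks and 0 Pax5+/+ peaks. Rtn4rl2, a receptor of the Nogo family, was at 1.31 and 3.38 TPM in Pax5+/+, 2.97 and 1.11 TPM in Pax5+/-, 14.9 and 12.5 TPM in Pax5R31Q/- and 0.0 and 0.168 TPM in Pax5-/- libraries (2.21, SE 0.38, adjusted p = 0.0208). It too held 2 Pax5R31Q/- peaks and 0 Pax5+/+ peaks, with 1 member at chr2:84883205-84883509 in an intron and 1 at chr2:84868538-84868822 downstream. Of the other higher genes, Dlg2 held 20 Pax5+/+ and 3 Pax5R31Q/- peaks, Myl10 3 and 2, and Htra3 1 and 0. Sema3g held 1 and 1, Rapgef3 2 and 3, and Efhd1 and Tmem200b 0 of each. The lower genes Plxdc1 (2 and 4), Pik3ap1 (2 and 3) and Sh3bp5 (1 and 2) also held more Pax5R31Q/- peaks. Alpl (4 and 3), Auts2 (7 and 4), Clec2m and Spns3 (1 and 0 each) held fewer, and Asb2, Parvb and Slit1 equal numbers. The Rtn4rl2 call was lost without the first Pax5+/+ library (log2 fold change 1.74) and without either mutant library (2.09 and 2.33). It was also lost with a pseudocount of 0.1 (limma adjusted p = 0.0814) and without the filter on low TPM (0.15).

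Efhd1, a calcium-binding protein of mitochondria, was also highest in the mutant, with 10.9 and 22.1 TPM in Pax5+/+, 35.5 and 26.2 TPM in Pax5+/-, 55.2 and 51.6 TPM in Pax5R31Q/- and 5.72 and 6.26 TPM in Pax5-/- libraries (1.71, SE 0.30, adjusted p = 0.0218). The Pax5+/+ libraries were far apart, and the call was lost without the first Pax5+/+ library (log2 fold change 1.23) and without either mutant library (1.67 and 1.76). It was also lost without the filter on low TPM (limma adjusted p = 0.15). Tmem200b, a transmembrane protein, was at 0.157 and 0.235 TPM in Pax5+/+, 0.914 and 1.13 TPM in Pax5+/-, 7.34 and 4.88 TPM in Pax5R31Q/- and 1.53 and 2.17 TPM in Pax5-/- libraries (2.55, SE 0.23, adjusted p = 0.00167, and 4.37 with a pseudocount of 0.1). Dlg2, a synaptic scaffold protein, was at 4.08 and 3.08 TPM in Pax5+/+, 7.07 and 7.05 TPM in Pax5+/-, 14.3 and 11.6 TPM in Pax5R31Q/- and 6.92 and 8.57 TPM in Pax5-/- libraries (1.61, SE 0.19, adjusted p = 0.00513). The Dlg2 call was lost without the second Pax5+/+ library (1.45), without the first mutant library (1.46) and with median-ratio scaling (1.57), and that of Tmem200b without the first mutant library (2.298), where the mean stayed under 5 TPM. Whether the mutant differed from the null was not tested for any of these genes. Over the 19 genes, both Pax5+/- libraries lay above both Pax5+/+ ones for 7 of the 9 higher genes, where 21.1% of all genes tested did so, and below them for 8 of the 10 lower genes, where 14.9% did. These counts share the Pax5+/+ libraries with the call that selected the genes. In Pax5+/- cells 0 of the 19 were called, where 3 lower and 0 higher of all 13436 genes tested were. Of the 19 genes, 11 overlap another annotated gene (Asb2, Auts2, Dlg2, Efhd1, Parvb, Pik3ap1, Plxdc1, Rapgef3, Sh3bp5, Slit1 and Tmem200b), and their values are uncertain in this respect because the strand setting of the counting is not given in the sources used here.

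**Figure D5:**
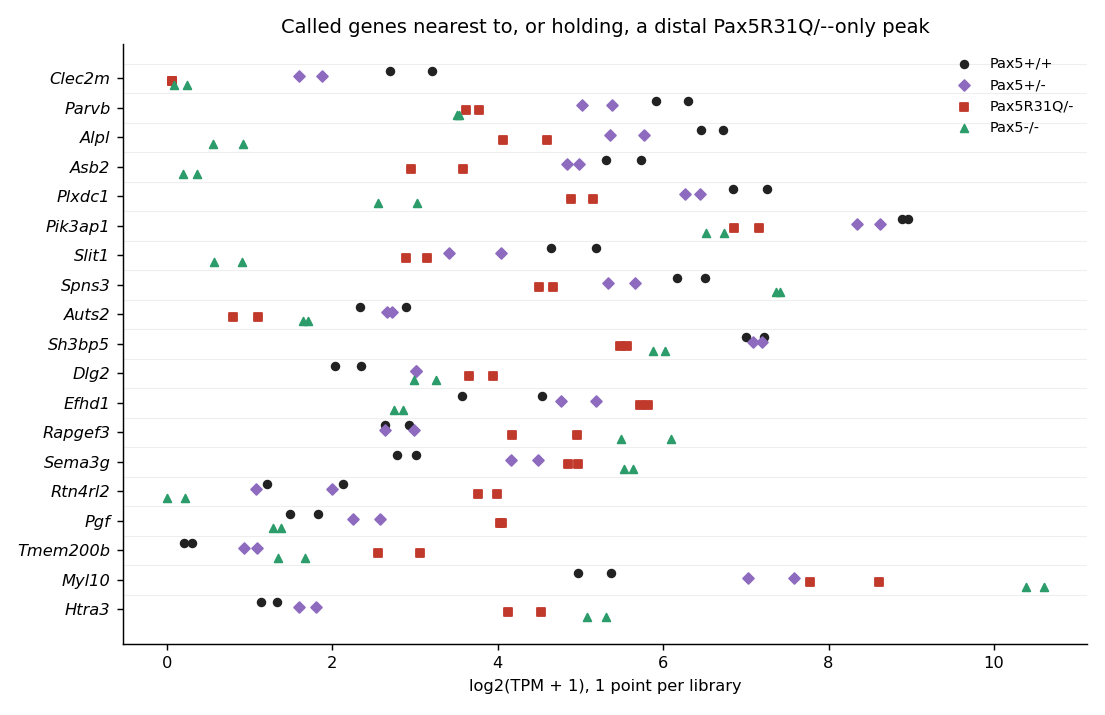
Expression, as log2(TPM + 1) with 1 point per library, of the 19 genes called in Pax5R31Q/- against Pax5+/+ pro-B cells that were nearest to or held a distal Pax5R31Q/--only peak. Mutant points (red squares) and wild-type points (black circles) are apart, as the selection required, and Pgf, Rtn4rl2, Efhd1, Tmem200b and Dlg2 are higher in the mutant than in the Pax5-/- libraries (green triangles).

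Of the 8 B-lineage regulators with a member, Pax5 and Bach2 passed the test and 0 were called. Bach2 was at 166 and 134 TPM in Pax5+/+, 79.5 and 48.4 TPM in Pax5R31Q/- and 19.9 and 19.4 TPM in Pax5-/- libraries, and its log2 fold change in the mutant of -1.25 (SE 0.22, adjusted p = 0.0229) did not reach 3-fold. Ebf1 was at 454 and 502 TPM in Pax5+/+, 410 and 387 TPM in Pax5R31Q/- and 143 and 166 TPM in Pax5-/- libraries (mutant: -0.26, adjusted p = 0.285). Tcf3 was at 1107 and 1462 TPM in Pax5+/+ and 869 and 794 TPM in Pax5R31Q/- libraries (-0.61, adjusted p = 0.0884). Ikzf1 was at 331 and 300 TPM in Pax5+/+ and 281 and 238 TPM in Pax5R31Q/- libraries (-0.28, adjusted p = 0.287), and Bcl11a at 90.7 and 104 TPM and at 84.3 and 76.6 TPM (-0.27, adjusted p = 0.393). Both mutant libraries lay below both wild-type ones for Pax5, Ebf1, Tcf3, Ikzf1, Bach2 and Bcl11a, or 6 of the 8 regulators, and for 7 of the 14 listed genes in all, where this held for 25% of all genes tested. Pax5, the gene altered in the mutant, is included in both counts.

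Foxo1 was at 201 and 220 TPM in Pax5+/+ and 209 and 200 TPM in Pax5R31Q/- libraries (-0.04, adjusted p = 0.921), and Runx1 was at 61.5 and 75.7 TPM and at 90.9 and 73.3 TPM (0.26, adjusted p = 0.416). Tcf7 was at 32.8 and 47.8 TPM and at 54.8 and 55.1 TPM (0.46, adjusted p = 0.215), and in Pax5-/- libraries at 101 and 92.1 TPM. Cxcr4 was at 636 and 404 TPM and at 789 and 599 TPM (0.44, adjusted p = 0.362). For Foxo1, Runx1 and Cxcr4 the libraries of the 2 genotypes overlapped. The genes with the most members were not called either, as Zap70 was at 11.4 and 14.9 TPM in Pax5+/+ and 7.07 and 4.89 TPM in Pax5R31Q/- libraries (-1.03, adjusted p = 0.0675), and Socs1 at 15.0 and 14.1 TPM and at 22.5 and 12.9 TPM (0.21, adjusted p = 0.681). Erdr1, nearest to 7 members on X and Y, was at 652 and 746 TPM in Pax5+/+, 214 and 301 TPM in Pax5+/-, 263 and 396 TPM in Pax5R31Q/- and 195 and 342 TPM in Pax5-/- libraries (mutant: -1.11, adjusted p = 0.102), and its reads may be shared with near-identical copies.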

How the data were processed

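Peak positions and TPM values were taken as deposited. The authors aligned ChIP-seq reads with Bowtie 2 (2.3.5.1) to GRCm38, down-sampled with Picard (2.18.27) where needed and called peaks with MACS against Rag2-/- input. The deposited peak files hold chromosome, start and end, with a score of 0. ChIP read depth was not used here. TPM values per gene were computed by the authors, have an equal sum in every library and keep no depth, so precision is set by the 2 libraries per genotype. Immunoglobulin genes (385) were kept out of calls.

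Members, gene lists and motifs were chosen with earlier results of these data known. An overlap was 1 shared base. TSSs were the starts of the curated and predicted messenger and noncoding RNA transcripts of RefSeq for GRCm38.p6, without tRNA genes. Sequences were read from that assembly (RefSeq). Motifs were searched on both strands in 300 bp around the midpoint. Shares have exact (Clopper-Pearson) 95% intervals. Genes were assigned by the TSS nearest to the midpoint. Of 25579 deposited genes, 25366 matched a RefSeq symbol. Expression was compared in limma 3.58.1 (R 4.3.3) on log2(TPM + 1) with all 8 libraries, for genes with at least 1 TPM in a library, with Benjamini-Hochberg adjustment. Named genes were those called in Pax5R31Q/- against Pax5+/+ and nearest to or holding a member, the genes nearest to most members, and listed genes with a member; named peaks were the widest, those with fewest mismatches, and those of named genes. Positions, motif search and limma were tested on simulated data. Python 3.11.15, pandas 2.3.3, numpy 2.4.6, scipy 1.17.1, pysam 0.24.0 and matplotlib 3.10.9 were used. With 1 ChIP library per genotype, no test was made on peaks.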

Additional observations from a re-analysis of the deposited data

How the results depend on the processing

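The number of members stayed between 1455 (TSS window of 5 kb) and 2262 (overlap counted only over at least 50% of the peak) under the 9 alternatives, all within 1.5 times of 2005. The share of members with a Pax5 match depended on the pattern: it was 0% with at most 1 mismatch, 9.03% with at most 3, 0.399% in a window of 100 bp, 1.596% in a window of 500 bp, 1.80% with T at base 5 (chosen after seeing the data), and 0.890% in peaks under 50% masked. In each of the first 4 of these, distal common peaks had the larger share (0.946%, 18.3%, 3.78% and 5.99%). The share in introns was 45.1% with curated transcripts only. The median width stayed between 377 and 378 bp. With a 2-fold limit, 14 nearest genes were called lower and 21 higher, against 7 and 7, while the shares over all genes rose to 1.21% and 0.767%. Leaving out each of the 2 Pax5+/+ and 2 Pax5R31Q/- libraries in turn, but not those of the other genotypes, gave 6 to 11 lower and 4 to 8 higher, while the shares over all genes ran from 0.358 to 0.716% and from 0.149 to 0.261%. Without the filter on low TPM 7 were lower and 5 higher, and 5 of the 19 called genes lost their call. The shares over all genes fell to 0.203% lower and 0.086% higher in that fit, where genes of low TPM also counted as tested. Of the 19 named called genes, 10 kept their call under all 9 alternative fits. Restricting to members whose central 50 bases occur once, also chosen after seeing the data, left 1901 members and a Pax5 match in 0.947%. No paired analysis was possible because the labels carry no replicate numbers, and first and second only name the libraries in the order they are listed. Peak heights and ChIP depth were not used here, so how the size of either list depends on depth was not tested.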
